A study of Homo sapiens with 22 samples.

Results

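The genes described are SOX10, S100B, MBP, ERBB3, PMP2, GPM6B, PTPRZ1 and EDNRB, 8 genes of the neural crest and of the Schwann cells that wrap peripheral nerve. They were chosen from an earlier reading of the same data, because their levels were high in the glioblastoma line SNU-466 and near 0 in A-172 and AM-38. All 8 have a row among the 5383 genes of a table that covers these 3 lines. Only PTPRZ1 and EDNRB have a row among the 2221 genes of a second table, which covers 8 further lines, and the other 6 genes were not analysed there. The tables hold 6825 genes between them, of which 779 are in both.

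RNA sequencing was carried out on 11 established human glioblastoma lines that received no treatment, with 2 libraries of poly(A) RNA per line and 22 in all. A-172, KNS-42, LN-18 and LN-229 were grown in DMEM, AM-38, T98G, U-87MG and U-138MG in EMEM, and SNU-466, KALS-1 and SNU-1105 in RPMI, with 20% serum for AM-38 and 10% for every other line. SNU-466, A-172 and AM-38 therefore each had a medium of their own, so that line and medium cannot be told apart among them. A line is cells propagated from a tumour, and no normal Schwann cells, oligodendrocytes or astrocytes were analysed here.

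The neural crest is an embryonic cell population that leaves the neural tube and gives rise to Schwann cells, melanocytes and parts of the facial skeleton. SOX10 is the transcription factor that crest-derived glia, melanocytes and also oligodendrocytes depend on, and in Schwann cells it acts with EGR2 on myelin genes such as MBP. ERBB3 carries the neuregulin signal from axons to Schwann cells, EDNRB carries the endothelin signal in crest-derived cells, and S100B is a calcium-binding protein by which pathologists recognise Schwann and other glial cells. PTPRZ1 and GPM6B are common in brain glia and in gliomas, so not every one of the 8 genes separates a peripheral from a central glial cell.

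Each library held between 16958669 and 21213215 reads, as computed from the deposited values, of which the listed genes took 21.8% to 37.1% for the 3 lines and 5.81% to 10.2% for the 8 lines. The genes of the 3-line table differ at least 2-fold between the mean of SNU-466 and the mean of the other lines in 93.9% of cases, so the table itself is strongly weighted towards that contrast. The 8-line table is weighted in the same way, with 99.3% of its genes at least 2-fold apart between the mean of T98G, LN-18 and KALS-1 on one side and the mean of the remaining 5 lines. Agreement of paired libraries was taken over genes above a minimum mean level in the line, from 928 genes in T98G to 3700 in AM-38. They lay within 1.5-fold of each other for 85.9% to 96.3% of these genes in 9 lines, but for 70.0% in SNU-1105 and 54.8% in T98G. Several of the 8 genes fall under that level in A-172 and AM-38, so these shares do not cover them there. The labels do not say whether the paired libraries are from separate cultures. The p-values then reflect only how far paired libraries lie apart, and that distance may be technical.

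The stretches of genome before annotated starts of the genes show where the recognition letters of SOX proteins lie. Promoter windows were present in RefSeq (GRCh38.p14) for 4 of the 8 genes, PTPRZ1, EDNRB, MBP and GPM6B, as 7 windows of 250 bases before an annotated start, and SOX10, S100B, ERBB3 and PMP2 had no entry. The windows were searched on both strands for the letters ACAAAG and ACAATG, 2 forms of the core that SOX proteins recognise, which cannot both match at the same position of a strand. Of 35097 windows of the same length, 13.7% held ACAAAG, 9.29% held ACAATG and 21.2% held either, and 2 of the 7 windows here held either. The GPM6B window at chrX:13938639-13938888, on the minus strand and outside the annotated gene, is shown because it holds a match, 124 bases before the start. The MBP matches lie before a downstream start of that gene, 228 and 192 bases before it. They lie at chr18:77017268-77017293 and chr18:77017232-77017257 on the minus strand, in a window where annotated exon and coding sequence cover 213 bases. Apart from the GPM6B window shown and part of the PTPRZ1 window, the windows lie inside the annotated gene. The stretch of the PTPRZ1 window that precedes the annotated gene, chr7:121872911-121873088 on the plus strand, is shown as one with no match. The number of CG pairs was 35 in the GPM6B window shown and 8 in its other window, 29 in the PTPRZ1 window, 36 and 12 in the MBP windows and 9 and 16 in the EDNRB windows, against a median of 11 over all windows. Capitals mark a match, sequences run 5′ to 3′, and a match is a description of letters and not evidence of binding.
GPM6B: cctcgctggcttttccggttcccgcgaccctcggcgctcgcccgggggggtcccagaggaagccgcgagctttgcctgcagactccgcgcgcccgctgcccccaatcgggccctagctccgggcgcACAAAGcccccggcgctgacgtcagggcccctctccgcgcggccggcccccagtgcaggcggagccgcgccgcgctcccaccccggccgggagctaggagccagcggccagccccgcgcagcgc
MBP upstream match: attcatatctCATTGTtgtttgcagg
MBP second match: gcgaaccagaACAATGggacctcctc
PTPRZ1: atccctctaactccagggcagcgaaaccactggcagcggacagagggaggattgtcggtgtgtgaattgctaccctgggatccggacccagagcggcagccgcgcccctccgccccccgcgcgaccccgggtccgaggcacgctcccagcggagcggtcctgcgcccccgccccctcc

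In SNU-466 the 8 genes were expressed over a wide range, and in A-172 and AM-38 they were at or near 0. Since the genes were chosen for this contrast, the values are a description and no test was applied to them. Levels are given in FPKM, the reads of a gene scaled to its length and to the library total, and as reads where few were counted. The summed reads of the 8 genes made up 0.563% and 0.567% of the SNU-466 libraries. The same sum was 43 and 52 reads in the A-172 libraries and 180 and 170 reads in the AM-38 libraries.

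SOX10 (ENSG00000100146, chr22:37970686-37987422, minus strand), the transcription factor of the group, reached 133 and 140 FPKM in the SNU-466 libraries, a mean of 137 ± 5.44 FPKM (SD, n = 2). It had 1 and 0 reads in the A-172 libraries and 2 and 2 reads in the AM-38 libraries. The SNU-466 libraries held 10860 and 13304 reads, a contrast for which the gene was chosen. The level in SNU-466 was 6770-fold that in AM-38, an imprecise ratio because AM-38 had 4 reads. It was 26150-fold that in A-172 with a 95% counting interval of 4694 to 1.033e+06, because A-172 had a single read.

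S100B (ENSG00000160307, chr21:46598962-46605208, minus strand) was the highest of the 8 genes. Both SNU-466 libraries gave 958 FPKM, the mean being 958 ± 0.253 FPKM (SD, n = 2), the fifth highest level among the 5383 listed genes of that line. A-172 had 0 and 2 reads and AM-38 had 25 and 35 reads. The level in SNU-466 was 1179-fold that in AM-38, while the ratio to A-172 was 34340 with a counting interval of 9506 to 283600.

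The receptors were ERBB3, EDNRB and PTPRZ1. ERBB3 (ENSG00000065361, chr12:56076799-56103505, plus strand), the neuregulin receptor that signals as a partner of ERBB2, gave 44.2 and 44.7 FPKM in SNU-466. A-172 had 23 and 32 reads and AM-38 had 20 and 10 reads of it, so SNU-466 was 376-fold above A-172 and 720-fold above AM-38. It was the gene with the largest share of its SNU-466 level left in A-172, 0.266%.

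PTPRZ1 (ENSG00000106278, chr7:121873089-122062036, plus strand), a receptor tyrosine phosphatase that binds pleiotrophin and midkine, gave 84.5 and 84.3 FPKM in SNU-466. It had 1 and 0 reads in A-172 and 1 and 3 reads in AM-38. The SNU-466 libraries held 14526 and 16776 reads. The 8653-fold difference from AM-38 rests on 4 AM-38 reads and is imprecise.

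EDNRB (ENSG00000136160, chr13:77895481-77975529, minus strand), the B-type endothelin receptor, was the lowest of the 8 genes in SNU-466, with 13.4 and 12.2 FPKM and a mean of 12.8 ± 0.839 FPKM (SD, n = 2). It had 0 and 0 reads in A-172 and 36 and 29 reads in AM-38. AM-38 thus kept 2.19% of the SNU-466 level, the largest share of any of the 8 genes in either line. SNU-466 was 45.7-fold above AM-38 and at least 952-fold above A-172, the bound being set by 3 reads over the 2 A-172 libraries.

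Among the myelin and membrane genes, MBP (ENSG00000197971, chr18:76978827-77133683, minus strand), which compacts the cytoplasmic faces of myelin, gave 30.5 and 31.0 FPKM in SNU-466. A-172 had 6 and 5 reads and AM-38 had 89 and 79 reads, so that SNU-466 was 2074-fold and 141-fold higher. The deposited MBP length of 18730 bases is the longest of the 8, and MBP stands seventh of them in FPKM although its 9694 and 11394 reads exceed those of ERBB3. AC093330.2, a listed gene that overlaps MBP on the same strand, was at 0.779 ± 0.267 CPM (reads scaled to the library total only, SD, n = 2) in SNU-466 and had no reads in the other lines. The rules for assigning reads of overlapping genes are not given in the sources used here.

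PMP2 (ENSG00000147588, chr8:81440326-81447523, minus strand), the fatty acid binding protein of peripheral myelin, gave 34.99 and 37.05 FPKM in SNU-466 and 0 reads in all 4 libraries of A-172 and AM-38. A count of 0 allows up to 3 reads, or 0.0401 to 0.0436 FPKM in a library, and covers counting error only. SNU-466 was at least 1679-fold above A-172 and at least 1741-fold above AM-38. PMP2 was the only one of the 8 genes without a read in either line.

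GPM6B (ENSG00000046653, chrX:13771031-13938638, minus strand), a membrane protein of glia and neurons, gave 193 and 191 FPKM in SNU-466. It had 12 and 13 reads in A-172 and 7 and 12 reads in AM-38. SNU-466 was 1760-fold above A-172 and 2377-fold above AM-38, the kind of contrast for which all 8 genes were chosen.

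By level in SNU-466 the order was S100B at 958, GPM6B at 192, SOX10 at 137, PTPRZ1 at 84.4, ERBB3 at 44.4, PMP2 at 36.0, MBP at 30.8 and EDNRB at 12.8 FPKM. Each neighbouring pair in this order was separated in both libraries. In A-172 and AM-38, by contrast, no gene reached 1 FPKM, the highest mean being S100B in AM-38 at 0.813 FPKM. The plot of the 8 genes by library shows the distance between the lines on a log axis.

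**Figure D1:**
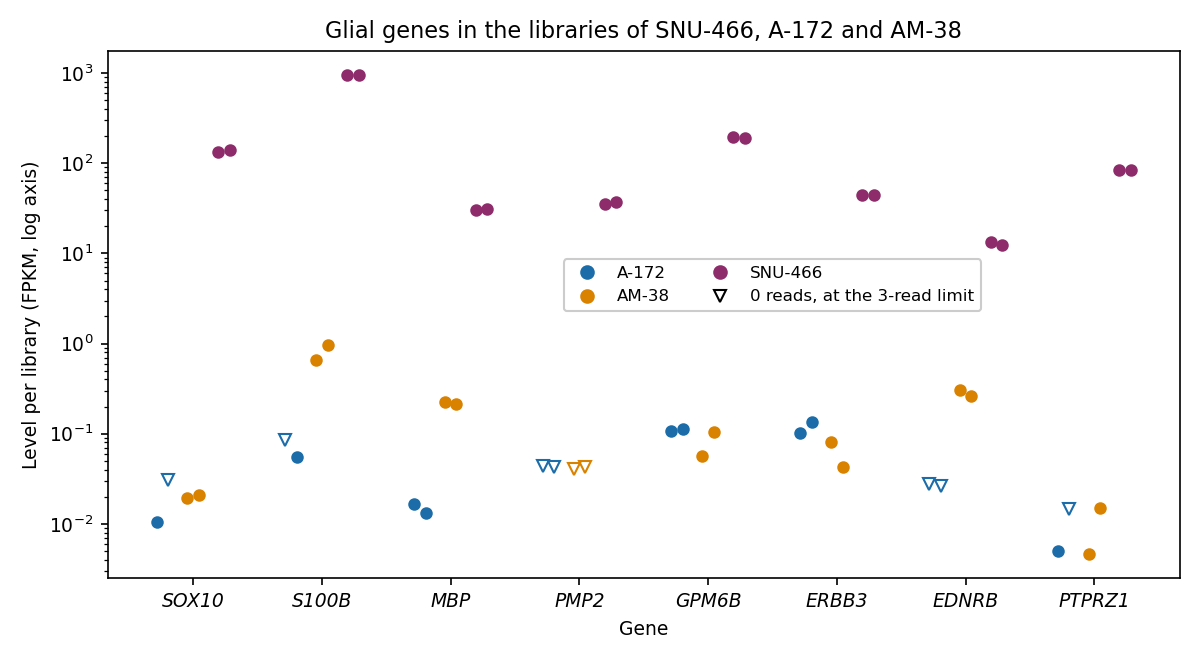
Level of each of the 8 genes in each library of A-172, AM-38 and SNU-466 in FPKM on a log axis, 2 points per line, with open triangles for libraries at 0 reads drawn at the level of 3 reads. Every SNU-466 point lies at 12.2 FPKM or above, and every other point under 1 FPKM, a contrast for which the genes were chosen.

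A-172 and AM-38 were then compared with each other. The genes were chosen as near 0 in both lines, and the choice did not use the difference between the lines. Of the 8 genes, 3 were higher in AM-38 than in A-172 and 0 were lower, where a call needs a Benjamini-Hochberg adjusted p under 0.05 in the edgeR quasi-likelihood test and at least a 2-fold change. Over all 5035 genes tested, 24.5% were higher in AM-38, 24.1% lower and 48.6% either, so that a count of 3 in 8 genes is close to what the table shows in general. SOX10, PTPRZ1 and PMP2 passed the filter on low counts only through SNU-466. The values of all 8 genes here rest on 0 to 89 reads per library.

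MBP was 14.7-fold higher in AM-38, a log2 fold change of 3.85 (SE 0.28, edgeR adjusted p = 4.224e-22), with both AM-38 libraries above both A-172 libraries. S100B was higher by a log2 fold change of 4.69 (SE 0.51, edgeR adjusted p = 1.028e-13), and from 60 against 2 reads the ratio was 29.6 with a counting interval of 8.20 to 244. The S100B value moved with single libraries and with the tool: it was 3.79 without A-172 replicate 1, 7.83 without A-172 replicate 2, and 3.43 in limma on log2 CPM. EDNRB was at least 20.9-fold higher in AM-38 (edgeR adjusted p = 2.412e-13), as A-172 had no read. All these levels are low, the AM-38 mean being 0.281 FPKM for EDNRB.

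For the other 5 genes no call was made. ERBB3 had a log2 fold change of -0.92 (SE 0.30, edgeR adjusted p = 0.005637), short of 2-fold. It passed as lower in AM-38 without A-172 replicate 1, at -1.11 (adjusted p = 0.003971), and without AM-38 replicate 1, at -1.45 (adjusted p = 0.001716). GPM6B stood at -0.44 (SE 0.38, adjusted p = 0.35). SOX10 and PTPRZ1, each with 1 read in A-172 and 4 in AM-38, could not be separated at this depth (adjusted p = 0.2125 for both), and PMP2 had no read to compare.

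Measured against SNU-466, AM-38 kept 2.19% of the EDNRB level, 0.709% of MBP, 0.139% of ERBB3, 0.0848% of S100B, 0.0421% of GPM6B, 0.0148% of SOX10 and 0.0116% of PTPRZ1. A-172 kept 0.266% of ERBB3, 0.0568% of GPM6B and 0.0482% of MBP. The gene with the largest share was thus EDNRB in AM-38 and ERBB3 in A-172.

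Among the other 8 lines, PTPRZ1 and EDNRB can be followed on their own. They were picked for their levels in the other table, but their rows come from a table whose genes appear chosen for differing among these very libraries. Both differed among the 8 lines (edgeR F = 134, adjusted p = 3.013e-13 for PTPRZ1 and F = 89.5, adjusted p = 5.7e-12 for EDNRB). That is true of 99.7% of the 2095 genes tested there, so the difference is not particular to them. Both genes had their highest and second highest levels in LN-229 and KNS-42.

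PTPRZ1 gave 41.0 and 21.8 FPKM in the LN-229 libraries and 14.7 and 11.8 FPKM in KNS-42. SNU-1105 followed with 0.61 and 2.24 FPKM, a spread of more than 3-fold between its own libraries. U-87MG was at 0.11 and 0.09 FPKM and U-138MG at 0.03 and 0.05 FPKM. The last 3 lines were at the limit of detection, KALS-1 with 1 and 3 reads, T98G with 3 and 0 reads and LN-18 with 0 and 3 reads.

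Neighbours in the order of the means were compared by the edgeR quasi-likelihood test, and as the order came from the same values the tests say only which neighbours are separated beyond the spread between libraries. LN-229 lay above KNS-42 by a log2 fold change of 1.25 (SE 0.42, adjusted p = 0.01849), in a pair of lines where 46.3% of genes were called. That call ended in limma (adjusted p = 0.118), without KNS-42 replicate 2 (adjusted p = 0.123) and without LN-229 replicate 1 (0.72, adjusted p = 0.274). KNS-42 lay above SNU-1105 by 3.22 (SE 0.46, adjusted p = 7.888e-06; background 50.2%), and SNU-1105 above U-87MG by 3.83 (SE 0.55, adjusted p = 8.748e-06; background 45.8%). Without SNU-1105 replicate 1 these became 2.56 and 4.48, and without its replicate 2 they became 4.45 and 2.60, with both calls kept. U-87MG and U-138MG were not separated (adjusted p = 0.1977; background 40.5%), nor were U-138MG and KALS-1 (adjusted p = 0.1552; background 68.9%). The lines at the limit of detection, KALS-1 and T98G (background 46.7%) and T98G and LN-18 (background 42.5%), were not separated either (adjusted p = 0.916 and 1).

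EDNRB gave 4.61 and 3.25 FPKM in LN-229 and 3.69 and 2.65 FPKM in KNS-42, and these lines overlapped and were not separated (edgeR adjusted p = 0.4174). U-87MG gave 1.27 and 1.82 FPKM, LN-18 gave 0.57 and 0.54 FPKM, and U-138MG gave 0.22 and 0.10 FPKM. KALS-1 stood at 0.15 and 0.11, SNU-1105 at 0.04 and 0.06 and T98G at 0.02 and 0.01 FPKM, the last with 2 and 1 reads. In T98G both genes came to 3 reads in all, at the limit of detection.

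KNS-42 lay above U-87MG in EDNRB by a log2 fold change of 1.03 (SE 0.31, edgeR adjusted p = 0.007028; background 54.8%). This call sits at the 2-fold limit and ended with TMM scaling (0.99), with RLE scaling (0.95), without KNS-42 replicate 1 (0.78) and without U-87MG replicate 1 (0.80). U-87MG lay above LN-18 by 1.47 (SE 0.33, adjusted p = 0.0005137; background 74.9%), which TMM scaling reduced to 0.54 (adjusted p = 0.14) and RLE scaling to 0.84. LN-18 lay above U-138MG by 1.82 (SE 0.39, adjusted p = 0.0003625; background 76.6%), and by 2.65 with TMM scaling, 2.48 with RLE scaling and 2.49 without U-138MG replicate 1. KALS-1 lay above SNU-1105 by 1.34 (SE 0.57, adjusted p = 0.04644; background 58.5%), a call from 26 against 11 reads that ended when any single library of KALS-1, SNU-1105 or LN-18 was left out. U-138MG and KALS-1 (adjusted p = 0.5748) and SNU-1105 and T98G (adjusted p = 0.1009; background 59.5%) were not separated.

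Set side by side without a test, because the tables were deposited apart, the SNU-466 levels of 84.4 FPKM for PTPRZ1 and 12.8 FPKM for EDNRB stand first of 11 lines. LN-229 follows with 31.4 ± 13.6 FPKM of PTPRZ1 and 3.93 ± 0.960 FPKM of EDNRB (SD, n = 2), and KNS-42 with 13.2 ± 2.10 and 3.17 ± 0.733 FPKM. AM-38 stands sixth for EDNRB, and A-172 has no EDNRB read. For PTPRZ1, KALS-1, AM-38, T98G, LN-18 and A-172 each had 4 reads or fewer over both libraries and have no order among them. The plot of PTPRZ1 and EDNRB over 11 lines shows that the upper 3 lines are the same for both genes. Both genes had been chosen as high in SNU-466 against A-172 and AM-38.

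**Figure D2:**
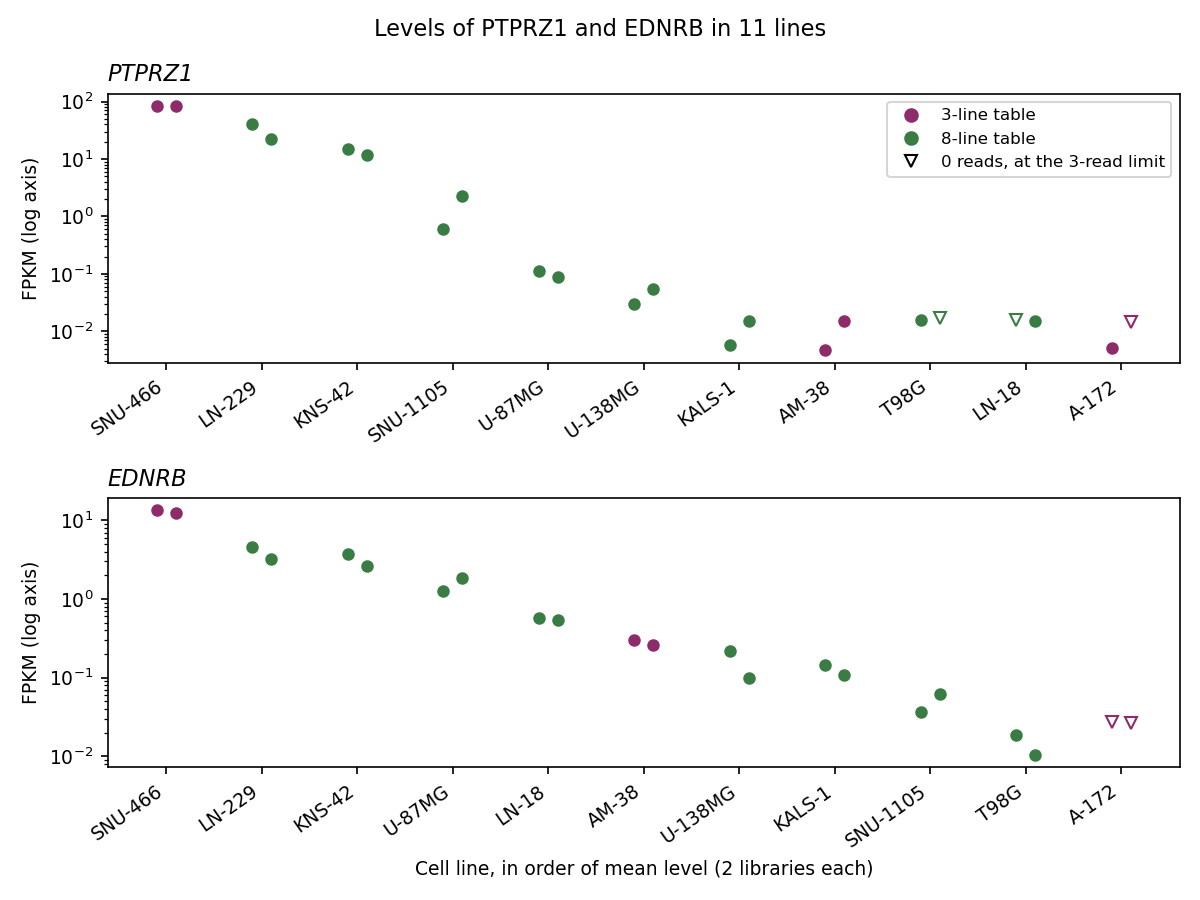
Level of PTPRZ1 and EDNRB in each library of the 11 lines in FPKM on a log axis, lines in order of the mean, with open triangles at the level of 3 reads for libraries at 0 reads. SNU-466, LN-229 and KNS-42 hold the first 3 places for both genes, which were chosen as high in SNU-466. SNU-466 and its comparison lines come from a separate table.

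Related genes show how far the pattern of SNU-466 extends. Lists covering 185 genes of crest, Schwann, myelin and neighbouring cell types were drawn up with earlier results of these data known, and 87 of their genes other than the 8 are in the 3-line table. Of these, 86 were tested, 53 were higher in SNU-466 than in both other lines, 23 lower and 10 neither. Over all 5035 genes tested, 32.3% were higher and 45.9% lower. The median log2 ratio of SNU-466 to the nearer of the other lines was 2.26 for the 87 genes and -0.80 for all 5383, where a line at or under 3 reads was set to 3.

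The myelin list was higher in SNU-466 in 10 of its 11 listed genes, with a median log2 ratio of 4.29. MOG, a protein of central myelin, stood at 10.4 FPKM in SNU-466 with 0 reads in A-172 and 1 in AM-38. MAL stood at 9.81 FPKM and MAG at 3.14 FPKM, each with at most 1 read in either other line. PMP22, the peripheral myelin gene duplicated in Charcot-Marie-Tooth disease and named here after its values were seen, stood at 261 ± 0.654 FPKM (SD, n = 2) against 13.3 in A-172 and 3.07 in AM-38. The list therefore held both peripheral and central myelin genes that were higher.

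The list of immature and repair Schwann cells was higher in 10 of 12 genes and lower in 1, with a median log2 ratio of 3.40. NGFR, the low-affinity neurotrophin receptor of crest and immature Schwann cells, stood at 379 ± 14.0 FPKM in SNU-466 (SD, n = 2), 19.6 in AM-38 and 1.23 in A-172. CDH19, a cadherin of Schwann cell precursors, stood at 11.0 FPKM with no read in either other line, a difference of at least 997-fold from A-172. GDNF stood at 31.9 FPKM, and CHL1 at 3.53 FPKM. ADGRG6, the adhesion receptor that Schwann cells need to begin myelination, was the lower gene, at 1.64 FPKM against 5.44 in A-172 and 3.44 in AM-38.

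Of the Schwann transcription factors, 4 of 7 were higher in SNU-466 and 0 lower. EGR2, the factor that drives myelination, stood at 6.21 ± 0.309 FPKM (SD, n = 2) against 0.0747 in A-172 and 0.0525 in AM-38. ZEB2 stood at 20.4 FPKM against 2.40 and 2.42. POU3F1, which precedes EGR2 in Schwann cells, was higher at a low level of 0.367 FPKM.

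The neural crest list split, with 3 of 5 genes higher and 2 lower. SOX8, which belongs to the same SOX class as SOX10, stood at 24.3 ± 1.52 FPKM in SNU-466 (SD, n = 2), with 3 reads in A-172 and 0 in AM-38. SOX9, the remaining gene of that class, went the other way, at 47.5 FPKM in A-172, 67.1 in AM-38 and 0.0419 in SNU-466. A-172 was 1133-fold and AM-38 1601-fold above SNU-466, ratios that are imprecise because SNU-466 had 6 reads. PAX3 stood at 1.97 FPKM in SNU-466 and SNAI1 at 9.69 FPKM, while PRDM1 was lower. The lines thus differed in which gene of the class they held, SOX10 and SOX8 in SNU-466 and SOX9 in A-172 and AM-38.

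The lists of receptor partners hold few listed genes, 7 for ERBB and 3 each for endothelin and PTPRZ1. Over all 5035 genes tested, 32.3% were higher in SNU-466 than in both other lines and 45.9% lower. The counts of these lists were not tested against those shares. Of 7 genes of the ERBB list, 2 were higher in SNU-466 and 5 lower; 1 was higher with TMM or RLE scaling, and 3 were lower without A-172 replicate 1 or either SNU-466 library. EGFR stood at 21.9 FPKM in A-172 and 28.97 in AM-38 but had 4 reads in SNU-466. ERBB2, the signalling partner of ERBB3, stood at 21.4 FPKM in SNU-466, 9.88 in A-172 and 3.16 in AM-38. NRG1, the ligand of ERBB3 and named here after its values were seen, was lower in SNU-466, at 0.408 FPKM against 3.16 and 2.10.

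Of 3 endothelin genes listed, 2 were lower and 0 higher, beside 45.9% lower and 32.3% higher over all genes tested. EDN1, a ligand of EDNRB, stood at 1.85 FPKM in SNU-466 against 9.08 in A-172 and 15.1 in AM-38. ECE1, the enzyme that releases active endothelin, stood at 8.60 FPKM against 57.7 and 20.7. EDNRA, the A-type receptor, named after its values were seen, had 0 reads in SNU-466, 73 in A-172 and 3 in AM-38, the reverse of EDNRB as between SNU-466 and A-172.

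Of 3 listed ligands and partners of PTPRZ1, 1 was higher and 2 lower, again beside 32.3% and 45.9% over all genes tested. NRCAM, a cell adhesion partner, stood at 12.2 FPKM in SNU-466 against 0.0347 in A-172. MDK, which encodes the ligand midkine, stood at 0.256 FPKM in SNU-466, 4.15 in A-172 and 14.1 in AM-38. CNTN1, to which PTPRZ1 binds, stood at 0.0508 FPKM in SNU-466 and 1.45 in AM-38.

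Relatives of GPM6B and S100B were mixed. GPM6A stood at 9.37 FPKM in A-172, with 3 reads in SNU-466. S100A1, like S100B, was higher in SNU-466, at 60.3 FPKM against 0.556 and 0.260, whereas S100A16 was lower, at 42.6 FPKM against 213 and 171. S100A2 was lower as well, at 0.848 FPKM against 10.8 and 10.4. The plot of the 8 genes beside their relatives shows these like and opposite orders; its relatives were picked after their values were seen.

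Markers of other cell types moved with the 8 genes in SNU-466, and their part in the result was not tested. All 7 listed oligodendrocyte markers were higher, with a summed level of 703 to 729 CPM in SNU-466, 237 to 256 in A-172 and 82.7 to 85.8 in AM-38, but OLIG1 was at 1.24 FPKM in SNU-466 and at 0 in the others. That list shares MOG, MAG and CNP with the myelin list. Of 7 cartilage markers 6 were higher, with a median log2 ratio of 6.95, above that of either glial list. Their summed level was 11654.5 to 11805.6 CPM in SNU-466 and 216 to 275 in the other lines. ACAN, the core protein of cartilage matrix, stood at 242 FPKM against 0 and 2 reads. The lower gene of the cartilage list was SOX9, at 0.0419 FPKM in SNU-466 against 47.5 in A-172 and 67.1 in AM-38. Of 7 fibroblast markers 6 were higher and 1 was lower, PRRX1, at 0.0461 FPKM against 2.73 in A-172 and 3.40 in AM-38. COL1A2 stood at 944 FPKM, and the fibroblast sums were 12593.6 to 12650.6 CPM against 195 to 442. Single genes carried these sums: COL11A1 held 62.9% of the cartilage reads and COL1A2 80.9% of the fibroblast reads in SNU-466. CNP held 77.8% of the oligodendrocyte reads in SNU-466, 96% in A-172 and 97.8% in AM-38.

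Astrocyte markers were mixed, with 4 of 7 higher and 2 lower and sums of 334 to 339 CPM in SNU-466, 285 to 288 in A-172 and 402 to 403 in AM-38. GFAP, the defining astrocyte filament, stood at 3.41 FPKM in SNU-466 against 0.121 and 0.0280, while GLUL, the astrocyte glutamine synthetase, had 3 reads against 6.74 and 6.69 FPKM. Of 6 neuron markers tested, 3 were higher and 3 lower, but 2 were higher with TMM, RLE or limma and without A-172 replicate 2 or SNU-466 replicate 2. The list had sums of 204 to 206 CPM in SNU-466, 456 to 458 in A-172 and 79.8 in both AM-38 libraries, and NEFM was at 0 in SNU-466. Only 2 of the 14 melanocyte markers were listed, and both were lower, with GPR143 at 0 reads and TYRP1 at 1 read in SNU-466. Their sums were low in every line, at 0.0590 and 0 CPM in SNU-466, 2.87 and 3.37 in A-172 and 4.10 and 4.12 in AM-38. Of 5 glioma markers 1 was higher and 2 lower, with sums of 543 to 547 CPM against 736 to 896, and NF1, the neurofibromin gene, stood at 0.918 FPKM against 5.18 and 3.63. In bulk RNA, fewer cells of a type and less RNA per cell cannot be told apart. The name Schwann-like thus meets lists of which most but not all genes were higher in SNU-466: among the exceptions, ADGRG6 was lower, and PLLP, ITGA6, NAB2, TEAD1 and JUN, named after their values were seen, were neither. Most of the central myelin, cartilage and fibroblast markers were higher as well.

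**Figure D3:**
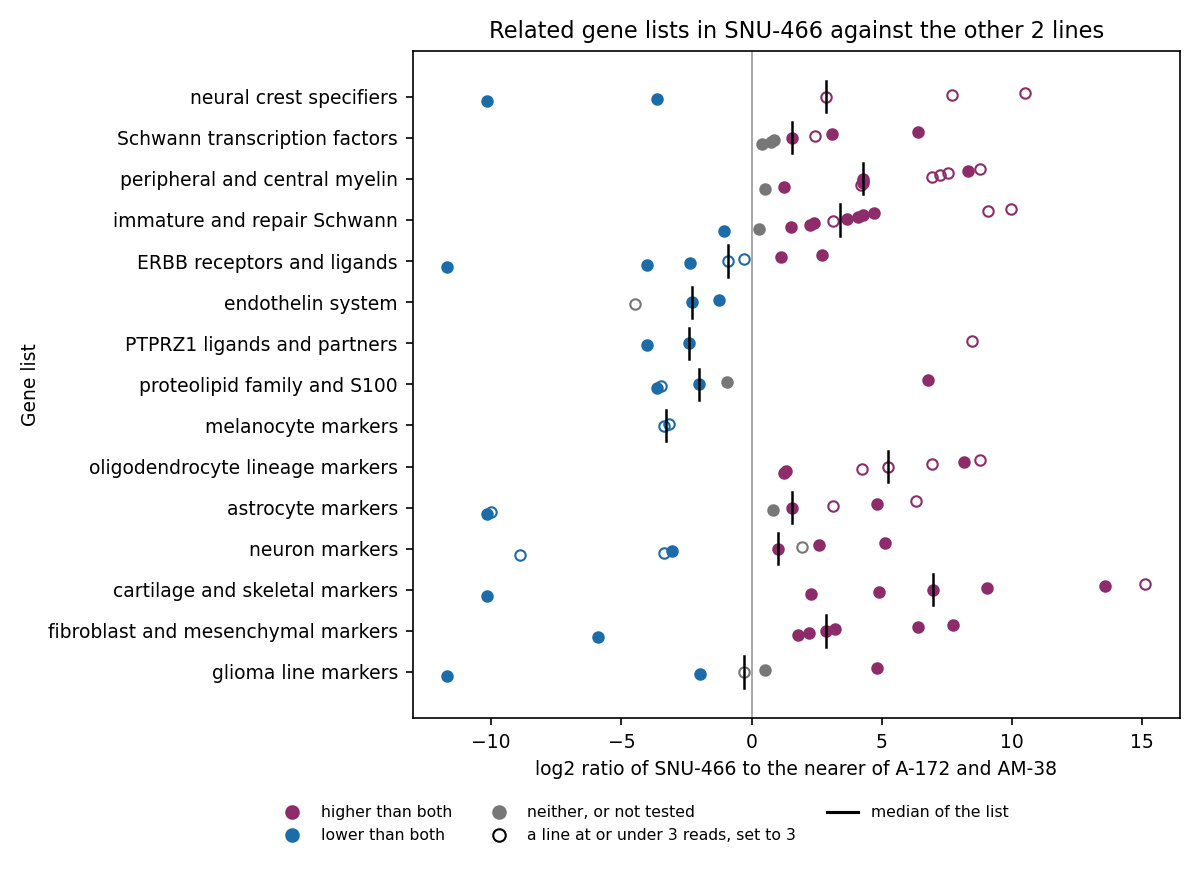
Each point is a listed gene other than the 8, placed by the log2 ratio of its SNU-466 level to that of the nearer of A-172 and AM-38, with open circles where a line had at most 3 reads and was set to 3, and bars at the list median. The myelin and oligodendrocyte lists lie mostly to the right, at medians of 4.29 and 5.22, and the cartilage list lies farthest right at 6.95. The endothelin and melanocyte lists, of 3 and 2 listed genes, lie to the left, at -2.29 and -3.27.

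The genes whose profile was most like each of the 8 were found by the mean absolute difference of centred log2 CPM over the 6 libraries of the 3-line table. SOX10 and PTPRZ1 were near each other, at 0.245, and both were near COL5A3 and ITIH6. GPM6B was nearest to PMP2, at 0.244, then to MAOB and PDZRN3. PMP2 was nearest to DLX5, at 0.0938, and to CAVIN3. MBP was nearest to SEMA6D and GALNT5, and EDNRB, which AM-38 also keeps, was nearest to INMT and then to the same SEMA6D and GALNT5. ERBB3 was nearest to APOD, at 0.224, and NPTX1. S100B had no close match, its nearest being COL5A3 at 0.841. With many genes at 0 in the same lines these likenesses describe the profiles only.

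Over the 16 libraries of the 8-line table, PTPRZ1 was nearest to ST8SIA5, at 1.06, FABP7 and CHL1, and EDNRB to CCDC184, at 0.813, LUZP2 and SLC19A3. FABP7 stood at 41.5 ± 1.901 FPKM in LN-229 and CHL1 at 15.0 ± 1.87 FPKM in KNS-42 (SD, n = 2), the lines in which PTPRZ1 was high. Of the 37 genes of the fixed lists present in that table, 36 were tested and 36 differed among lines, against 99.7% of all genes. LN-229 was the highest line for 10 of the 36, KNS-42 for 6 and U-138MG for 6. Over all 2221 genes, LN-229 was highest for 10.4%, KNS-42 for 16.9% and U-138MG for 13.3%. No more than 4 of the 36 were highest in any other line, and these shares were not tested.

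The 8-line table holds 7 of the 23 immature and repair Schwann genes, with LN-229 highest in 4, KNS-42 in 2 and SNU-1105 in 1. Of the LN-229 genes, ITGB8 overlapped with KNS-42 and SNU-1105 and LAMA4 with U-138MG by library. GDNF stood at 32.6 ± 11.1 FPKM in LN-229 and GAP43, a growth cone protein that Schwann cells also make, at 116 ± 17.2 FPKM in KNS-42 (SD, n = 2). NGFR, named here after its values were seen, stood at 43.5 ± 7.31 FPKM in SNU-1105 and 42.8 ± 8.19 FPKM in LN-229, which overlapped. Of the myelin list only FA2H was present, highest in LN-18 at 0.330 FPKM, so that a myelin pattern could not be followed in these lines.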

How the data were processed

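RNA from 22 libraries of 11 lines was analysed. Reads counted per gene and FPKM, with the gene length behind them, were deposited by the authors in 2 tables. The submitters' processing notes name HISAT2 2.2.1, StringTie 1.3.3, HTSeq 0.6.0, FastQC 0.10.1 and cutadapt 1.9.1, without roles, and the build hg38/GRCh38. The strand setting of the counting and the choice of listed genes are not given in the sources used here. Library totals were computed from reads, length and FPKM over genes of at least 20 FPKM with 200 reads or more, and returned the deposited FPKM within 0.01 for at least 99.91% of genes.

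Each table was fitted apart in R 4.3.3 with the quasi-likelihood test of edgeR 4.0.16 on counts, 1 coefficient per line, these totals as offsets and edgeR's low-count filter by line. A call needed a Benjamini-Hochberg adjusted p under 0.05 over all genes tested and a log2 fold change of 1 or more in either direction. The script was tested on simulated data. Alternatives were TMM and RLE scaling, no filter, DESeq2 1.42.0, limma 3.58.1 with a prior count of 2, the replicate number as a block, and leaving out each library. Bounds at 0 reads use 3 reads, and counting intervals are exact at 95%. Gene coordinates are from GENCODE 29 (GRCh38), with names matched for 5382 of 5383 and 2220 of 2221 genes.

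The 8 genes and the 15 lists were chosen with earlier results of these data known. Named from each list were at most 4 genes called higher and 4 called lower in SNU-466, ranked by fold change to the nearer line, at most 4 by range in the 8-line table, and the 3 genes most like each of the 8. Some genes that this rule names are not reported here.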

Additional observations from a re-analysis of the deposited data

How the results depend on the processing

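The counts of calls were stable in most settings. With TMM, RLE, limma, DESeq2, no filter or the replicate block, 3 of the 8 genes were higher in AM-38 than in A-172 and 0 were lower. Leaving out 1 library gave 3 higher and 0 to 1 lower, the 1 being ERBB3. List genes higher and lower in SNU-466 numbered 53 and 23, 51 and 24 with TMM, 49 and 25 with RLE, and 52 to 53 and 21 to 23 without 1 library. Neighbouring lines were called in 7 of 14 pairs, 5 with TMM or RLE and 6 to 7 without 1 library. EDNRB in SNU-1105 against T98G passed only in limma (1.02, adjusted p = 0.02744). RLE scaling shifted the median log2 fold change of all genes by 0.13 for AM-38 over A-172, -0.31 for SNU-466 over A-172 and -0.52 for SNU-466 over AM-38. Factors from these listed genes assume that most do not differ.

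Differences between replicates 1 and 2 correlated between lines at -0.03 to 0.06 for the 3 lines and -0.09 to 0.10 for the 8 lines, with 0 pairs over 0.1. The labels do not say whether libraries of the same number were prepared together, and these low values cannot settle it. With the replicate block, list genes numbered 53 higher and 22 lower, 2 genes differed among the 8 lines, and 6 neighbouring pairs were called, EDNRB in KNS-42 against U-87MG falling to 0.9999 on the log2 scale. Depth limits SOX10 and PTPRZ1 in A-172 and AM-38, at 0 to 3 reads per library.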
